A study of Mus musculus with 6 samples.

Results

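The antioxidant, glutathione and NRF2 target genes are the enzymes that remove superoxide and peroxides, make and use glutathione, reduce thioredoxin and detoxify quinones and heme, together with the transcription factors that control many of them. The set was drawn up as a list of 48 genes by name, and a gene was measured where a probe set on the array named that gene alone; when several did, the one with the highest mean over all 6 arrays stood for the gene. In this way 44 of the 48 genes were measured, among 18193 genes in all. Prdx1, Prdx5, Prdx6 and G6pdx were not analysed here, since all 5 probe sets that name Prdx1 also name another gene, and none that name the others were in the annotation used.

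Expression was compared between Atxn3-KO and Atxn3-WT mouse embryonic fibroblasts (MEFs), with 3 arrays per genotype. MEFs are connective tissue cells cultured from mouse embryos. The Atxn3-KO cells lack ATXN3, a deubiquitinating enzyme whose polyglutamine-expanded form causes the neurodegenerative disease spinocerebellar ataxia type 3, and the Atxn3-WT cells carry the normal gene. Both were grown in the same serum-containing medium, and the labels name no treatment. The replicates are described as biological, but no source used here says that they came from separate embryos or cultures, so the p-values reflect only how far these arrays scatter, possibly for technical reasons, and whether each genotype is represented by more than 1 line cannot be told. Strain, sex and embryonic age were not given in the sources used here.

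The biology behind these genes is well described. In unstressed cells the adaptor protein KEAP1 keeps the transcription factor NRF2 (gene Nfe2l2) at a low level by presenting it to a ubiquitin ligase; when oxidants or electrophiles modify KEAP1, NRF2 escapes degradation and, with a small MAF partner, activates genes through a short DNA sequence called the antioxidant response element. Superoxide dismutases turn superoxide into hydrogen peroxide, and catalase, glutathione peroxidases and peroxiredoxins then remove the peroxide. Glutathione transferases attach glutathione to reactive compounds. ATXN3 has a known link to this system, described in human cells, in which it binds the transcription factor FOXO4 and acts with it on the gene for the mitochondrial superoxide dismutase, Sod2.

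Values are RMA log2 expression levels, so a difference of 1 is a 2-fold change. The genotypes were compared with limma, and adjusted p-values are Benjamini-Hochberg values over all 45037 probe sets tested. A gene is said to have risen or fallen where its adjusted p was under 0.05. The targeted gene followed its labels, with Atxn3 at 3.60, 3.43 and 3.73 in Atxn3-KO MEFs, against 6.53, 6.81 and 6.66 in Atxn3-WT MEFs. Arrays of the same genotype correlated at 0.9985 to 0.9989 over all probe sets, and arrays of different genotypes at 0.9925 to 0.9935. Of 12 fibroblast markers 11 were measured, with a median level of 12.80; the exception to their high levels was Lum, below the lower quartile of the Atxn3-WT arrays. The mean level of these 11 markers was 11.77 to 11.81 in Atxn3-KO arrays and 11.88 to 11.89 in Atxn3-WT arrays. Of them, 2 rose (18.2%, against 17.1% of all genes) and 6 fell (54.5%, against 14.7% of all genes). Of the 10 epithelial markers Krt18 rose by 1.27 and Epcam by 0.38 on the log2 scale, and their list averaged 5.58 to 5.69 in Atxn3-KO arrays and 5.43 to 5.44 in Atxn3-WT arrays, with Cdh1, Krt18, Cldn4, Esrp1 and Ovol1 below the lower quartile of the Atxn3-WT arrays. Of the 10 endothelial markers Flt1 fell by 1.63, and their list averaged 5.03 to 5.08 in Atxn3-KO arrays and 5.20 to 5.22 in Atxn3-WT arrays, with Pecam1, Tek, Tie1, Emcn and Vwf below that quartile. None of the 12 macrophage markers passed the test in limma (4 had an unadjusted p under 0.05), and of the 6 erythroid markers measured only Epor did, falling by 0.35. The part of these marker differences in the results that follow was not tested, and in these bulk cultures fewer cells of a type and less RNA per cell cannot be told apart.

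The antioxidant genes were mostly higher in Atxn3-KO MEFs. Of the 44 measured, 25 rose, 2 fell and 17 did not pass the test. A share of 56.8% rose, where 17.1% of all genes did, and 4.55% fell, where 14.7% of all genes did. In either direction 31.8% of all genes and 26.0% of all probe sets passed. The 44 genes, like the further lists below, were chosen with earlier results of these data known, so such shares are description only. The probe sets of these genes were bright for the most part, with mean levels from 6.02 to 14.00 and a median of 10.82, and among the genes at or above the median probe set level 24.1% rose and 20.7% fell. The median difference of the 44 genes was 0.19 on the log2 scale, against 0.0021 over all genes, with a range of -0.40 to 1.74. All 3 Atxn3-KO arrays lay above all 3 Atxn3-WT arrays in 29 of the genes and below them in 6, which compares with 25.3% and 23.9% of all genes. The stricter thresholds of the study's methods are an adjusted p of at most 0.001 with at least a 2-fold change. By that rule Gpx7, Sod3, Mgst1 and Gstm2 rose and none fell, where 1.28% of all genes rose and 0.649% fell. At an unadjusted limma p under 0.05, 27 of the 44 genes were higher and 3 lower. Of all 18193 genes, 4094 were higher and 3654 lower at that cut-off.

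**Figure D1:**
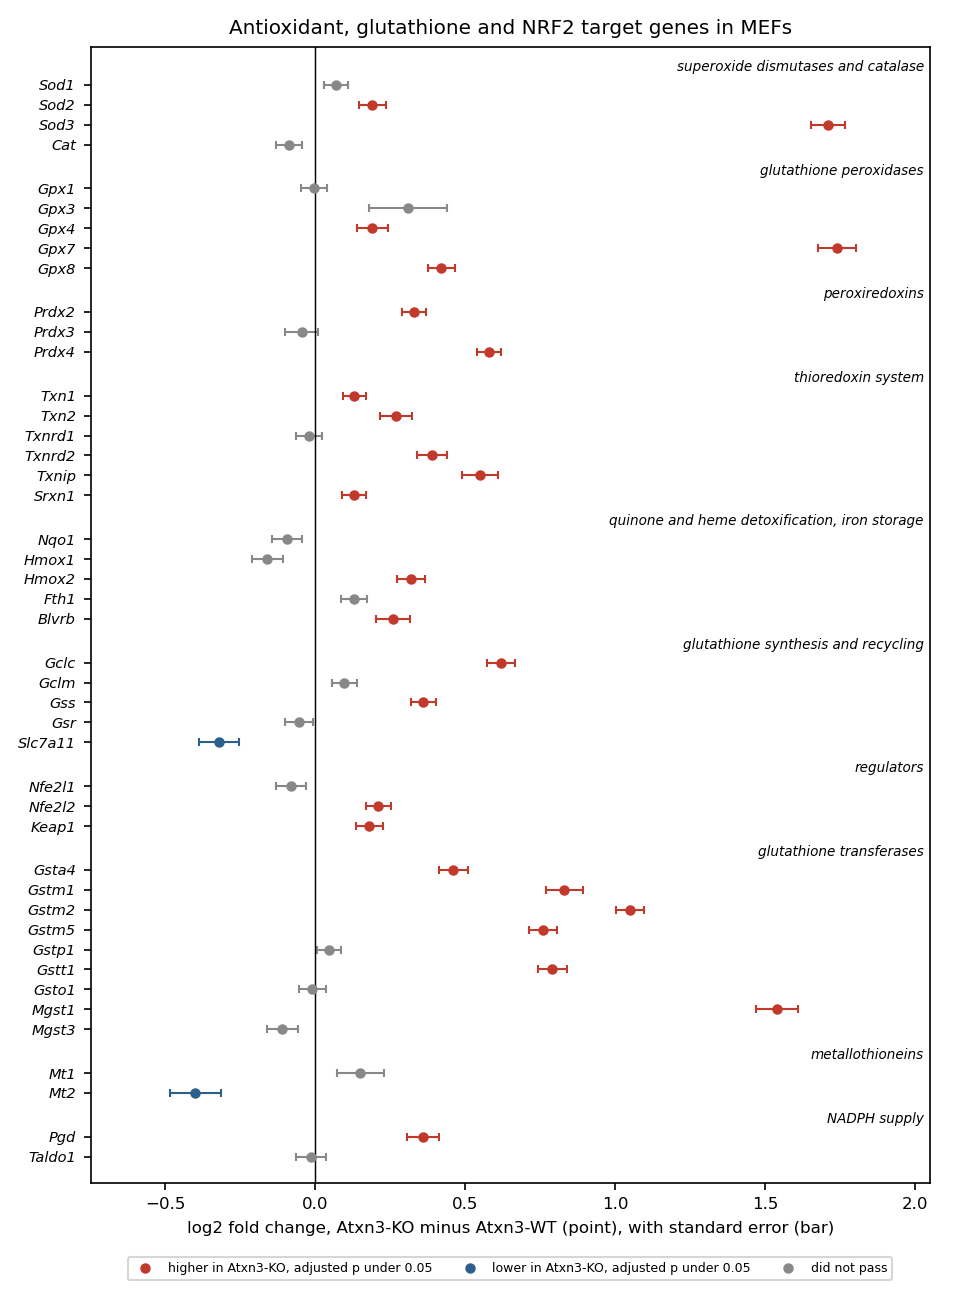
Log2 fold change of each measured antioxidant gene, Atxn3-KO minus Atxn3-WT, grouped by role; points are limma estimates from 3 arrays per genotype and bars are standard errors. Red points rose, blue points fell and grey points did not pass an adjusted p of 0.05; the highest points are Gpx7 at 1.74 and Sod3 at 1.71, and the only blue points are Slc7a11 at -0.32 and Mt2 at -0.40.

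**Figure D2:**
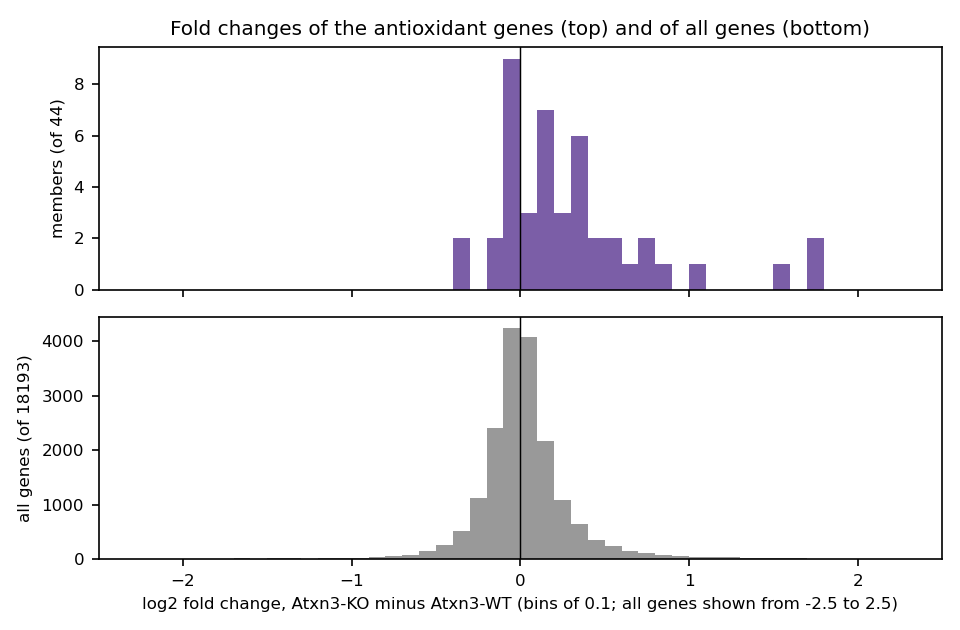
Number of genes by log2 fold change, Atxn3-KO minus Atxn3-WT, in bins of 0.1, for the 44 antioxidant genes (top) and for all 18193 genes (bottom, drawn from -2.5 to 2.5). The antioxidant genes have their median at 0.19 and a tail on the right that ends at 1.74, whereas the median of all genes is 0.0021.

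The increases were not of one size. Of the 25 genes that rose, 10 did so by at least 0.5 on the log2 scale (4.80% of all genes passed the test with such an increase and 2.52% with such a decrease), and neither of the 2 that fell reached that size. These 10 genes were Gpx7, Sod3, Mgst1, Gstm2, Gstm1, Gstt1, Gstm5, Gclc, Prdx4 and Txnip. Their roles are superoxide removal outside the cell, peroxide removal in the secretory pathway, glutathione synthesis, glutathione conjugation and thioredoxin control.

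Among the regulators, Nfe2l2 and Keap1 both rose by a small amount. Nfe2l2, the gene for NRF2 itself, was at 11.29, 11.24 and 11.26 in Atxn3-KO MEFs, against 11.03, 11.06 and 11.08 in Atxn3-WT MEFs. The genotypes did not overlap, and the difference was 0.21 ± 0.042 on the log2 scale (SE), or 1.15-fold, with an adjusted p of 0.0101 in limma; the dimmer of the Nfe2l2 probe sets differed by 0.16 and did not pass (adjusted p = 0.146). Keap1, the gene for the protein that marks NRF2 for degradation, was at 10.40, 10.44 and 10.42 in Atxn3-KO MEFs, against 10.20, 10.24 and 10.30 in Atxn3-WT MEFs. It differed by 0.18 ± 0.045 (SE), with a limma adjusted p of 0.0256, but its other probe set differed by 0.04 with an adjusted p of 0.67. The Keap1 call also ended when any array other than Atxn3-WT replicate 3 was left out, with adjusted p-values from 0.0543 to 0.0879. Nfe2l1, a related factor that drives proteasome genes, differed by -0.081 and did not pass the test (adjusted p = 0.297).

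The superoxide dismutases differed most outside the cell. Sod3, the secreted enzyme that removes superoxide in the extracellular matrix, was at 7.13, 7.04 and 7.05 in Atxn3-KO MEFs, against 5.38, 5.27 and 5.44 in Atxn3-WT MEFs. The levels of the 2 genotypes were far apart and the arrays of each lay close together, but the Atxn3-WT level was under the median of all probe sets (5.98). The increase was 1.71 ± 0.058 on the log2 scale (SE), or 3.28-fold, with a limma adjusted p of 2.96e-06, and the other Sod3 probe set rose by 0.75. Sod1, the cytosolic enzyme, was at 13.28 ± 0.024 in Atxn3-KO MEFs and 13.21 ± 0.0088 in Atxn3-WT MEFs (SD, n = 3 each), and did not pass the test (adjusted p = 0.271 in limma). Of its 4 other probe sets 1, at a mean level of 8.38, was lower in Atxn3-KO MEFs by 0.53, with an adjusted p of 0.000227, so the Sod1 probe sets differed in direction. Cat, the gene for catalase, differed by -0.087 and did not pass (adjusted p = 0.191).

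Sod2, the mitochondrial enzyme and the gene on which ATXN3 is known to act with FOXO4, was slightly higher in Atxn3-KO MEFs. Its brightest probe set was at 11.36, 11.43 and 11.45 in Atxn3-KO MEFs, against 11.24, 11.25 and 11.20 in Atxn3-WT MEFs, and the genotypes did not overlap. The difference was 0.19 ± 0.045 on the log2 scale (SE; 95% interval 0.081 to 0.29), or 1.14-fold, with a limma adjusted p of 0.0204. All 4 Sod2 probe sets were higher, by 0.17 to 0.32, and 3 of them passed the test. The call for the brightest probe set was a close one, since it ended without Atxn3-KO replicate 2 (adjusted p = 0.0723), Atxn3-KO replicate 3 (0.0582), Atxn3-WT replicate 1 (0.0527) or Atxn3-WT replicate 3 (0.0715), at log2 differences from 0.17 to 0.19.

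The FOXO transcription factors themselves, which switch on stress resistance and cell cycle arrest genes, differed little. Foxo3 averaged 9.68 ± 0.035 in Atxn3-KO MEFs and 9.89 ± 0.099 in Atxn3-WT MEFs (SD, n = 3 each), and fell by 0.21 on the log2 scale with a limma adjusted p of 0.0378; leaving out any array but Atxn3-WT replicate 2 ended that call, with adjusted p-values from 0.0667 to 0.116. Foxo4, the partner of ATXN3 at Sod2, differed by -0.092 (adjusted p = 0.235) and Foxo1 by -0.083 (adjusted p = 0.358), neither past the test. Of 13 known FOXO target genes outside the antioxidant set, 6 rose (46.2%, against 17.1% of all genes) and 2 fell (15.4%, against 14.7% of all genes). The highest were Pdk4, a kinase that blocks pyruvate oxidation, at 1.27, the cell cycle inhibitor Cdkn1b at 0.48, the DNA damage gene Gadd45a at 0.41 and the transcriptional coregulator Cited2 at 0.41; those that fell were the transcription factor Klf2, by 0.52, and the insulin receptor substrate Irs2, by 0.34. The other Cdkn1b probe set differed by 0.36 and did not pass (limma adjusted p = 0.146). Sesn3, 1 of the 6 that rose, is also counted among the further pathway genes below. Some of these genes have many other known regulators.

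**Figure D3:**
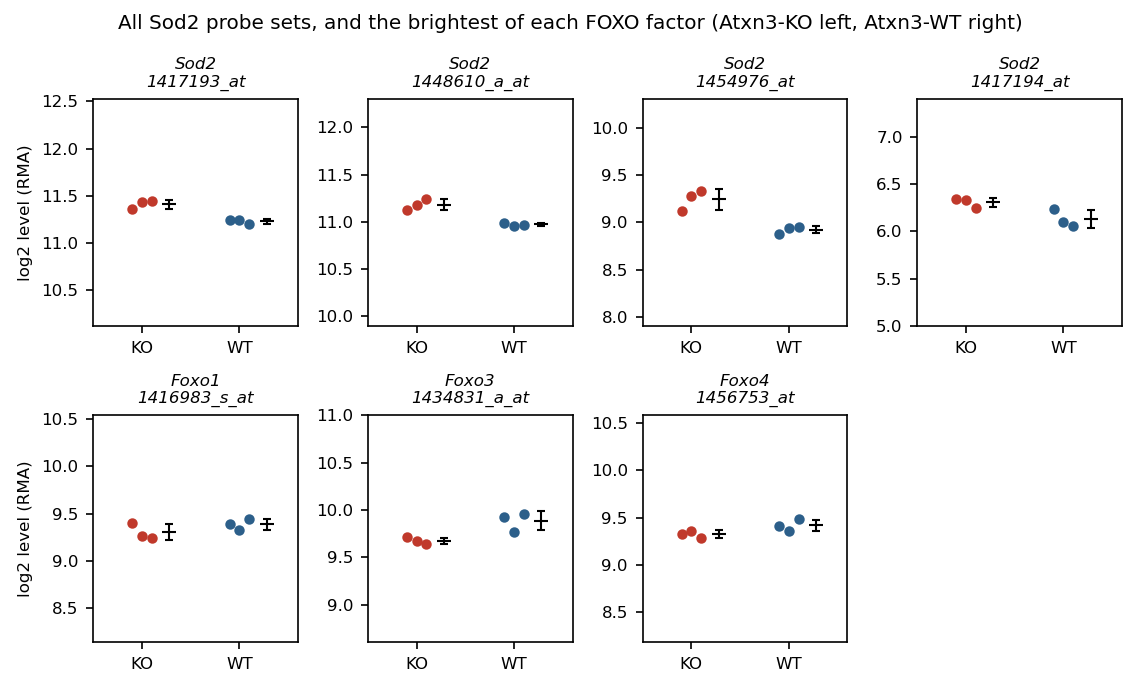
Log2 level on each array of the 4 Sod2 probe sets (top) and of the brightest probe set of Foxo1, Foxo3 and Foxo4 (bottom), Atxn3-KO in red on the left and Atxn3-WT in blue on the right of each panel; the crossbar is the mean and the whiskers are the SD of 3 arrays. Each panel spans the same number of log2 units, and in each of the 4 Sod2 panels the Atxn3-KO arrays lie above the Atxn3-WT arrays, by 0.17 to 0.32 on average.

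Among the glutathione peroxidases, which reduce peroxides, Gpx7 stood apart. This enzyme of the endoplasmic reticulum was at 9.82, 9.82 and 9.90 in Atxn3-KO MEFs, against 7.98, 8.18 and 8.16 in Atxn3-WT MEFs. That increase, 1.74 ± 0.064 on the log2 scale (SE) or 3.34-fold, was the highest of the 44 genes, with a limma adjusted p of 4.12e-06. Gpx8, its close relative in the same compartment, rose by 0.42 (adjusted p = 0.000574). Gpx4, which repairs lipid peroxides in membranes, rose by 0.19, with an adjusted p of 0.0333 that was 0.0737 to 0.0931 when any array other than Atxn3-WT replicate 3 was left out. Gpx1, the main cytosolic enzyme, was at 13.08 in both genotypes and had a 95% interval of -0.10 to 0.097 for the difference. Gpx3, the secreted form, lay near the median level of all probe sets (5.98) and was variable, at 6.18 ± 0.23 in Atxn3-KO MEFs and 5.87 ± 0.17 in Atxn3-WT MEFs (SD, n = 3 each; limma adjusted p = 0.135); it passed the test only without Atxn3-KO replicate 3, at a difference of 0.44.

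The measured peroxiredoxins, which use thiols to remove hydrogen peroxide, included 2 that rose (66.7%, against 17.1% of all genes) and 1 that did not pass. Prdx4, the peroxiredoxin of the endoplasmic reticulum, was at 13.46, 13.44 and 13.45 in Atxn3-KO MEFs, against 12.85, 12.87 and 12.88 in Atxn3-WT MEFs. The arrays of each genotype were nearly the same and the genotypes did not overlap. Prdx4 rose by 0.58 ± 0.040 on the log2 scale (SE), an increase of 49.9% (limma adjusted p = 7.29e-05), and its 3 dimmer probe sets rose by 0.63 to 1.06. The cytosolic Prdx2 rose by 0.33 (adjusted p = 0.001), whereas the mitochondrial Prdx3 differed by -0.046 (95% interval -0.18 to 0.086). Gpx7, Gpx8 and Prdx4, the peroxidases of this set that reside in the endoplasmic reticulum, all rose, where 17.1% of all genes did. This grouping by compartment was made after the values were seen and was not tested.

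In the thioredoxin system, which reduces protein disulfides with electrons from NADPH, 5 of 6 genes rose (83.3%, against 17.1% of all genes). Txnip, whose protein binds and inhibits thioredoxin, was at 10.47, 10.46 and 10.30 in Atxn3-KO MEFs, against 9.85, 9.81 and 9.92 in Atxn3-WT MEFs. Atxn3-KO replicate 3 was the lowest of its genotype but still above every Atxn3-WT array. The increase in Txnip was 0.55 ± 0.061 (SE) on the log2 scale, or 1.46-fold, with a limma adjusted p of 0.000696. The mitochondrial pair of thioredoxin, Txn2, and its reductase, Txnrd2, rose by 0.27 and 0.39 (adjusted p = 0.00895 and 0.00131). Their cytosolic counterparts differed less. Txn1 rose by 0.13 (adjusted p = 0.0496), and Txnrd1, a known NRF2 target, differed by -0.020 with a 95% interval of -0.12 to 0.080. Srxn1, the sulfiredoxin that repairs oxidized peroxiredoxins and another NRF2 target, rose by 0.13 (adjusted p = 0.0471). The Txn1 and Srxn1 calls ended when any 1 of the 6 arrays was left out, with adjusted p-values of 0.0893 to 0.145 for Txn1 and 0.0833 to 0.14 for Srxn1.

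Glutathione synthesis showed changes in both directions. Gclc, the catalytic subunit of glutamate-cysteine ligase, which catalyses the rate-limiting step, was at 9.96, 9.96 and 10.04 in Atxn3-KO MEFs, against 9.33, 9.38 and 9.41 in Atxn3-WT MEFs. It rose by 0.62 ± 0.047 on the log2 scale (SE), or 1.53-fold (limma adjusted p = 0.000123), and its other probe set rose by 0.65. Gss, which completes the tripeptide, rose by 0.36 (adjusted p = 0.000764). The modifier subunit Gclm differed by 0.097 in its brighter probe set (adjusted p = 0.155) and by -0.11 in the other, and Gsr, which reduces oxidized glutathione, differed by -0.055 (adjusted p = 0.452). Slc7a11, the cystine transporter that supplies cysteine for glutathione, also lay near the median level of all probe sets (5.98), at 6.27, 6.34 and 6.11 in Atxn3-KO MEFs, against 6.52, 6.58 and 6.59 in Atxn3-WT MEFs. It fell by 0.32 on the log2 scale (SE 0.067; limma adjusted p = 0.0107), with its other probe set lower by 0.41, so the ligase and the transporter moved in opposite directions.

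Of the glutathione transferases, the role with the most genes, 6 of 9 rose (66.7%, against 17.1% of all genes) and none fell. Their median difference was 0.76 on the log2 scale. Mgst1, a membrane-bound transferase that also reduces lipid peroxides, was at 11.17, 11.20 and 11.32 in Atxn3-KO MEFs, against 9.56, 9.73 and 9.77 in Atxn3-WT MEFs. It rose by 1.54 ± 0.071 (SE), or 2.92-fold, with a limma adjusted p of 1.08e-05. The other Mgst1 probe set lay at 4.06, below the lower quartile of all probe sets, and differed by 0.07. Gstt1, a cytosolic transferase of the theta class, was at 10.90, 10.91 and 10.83 in Atxn3-KO MEFs, against 10.08, 10.04 and 10.13 in Atxn3-WT MEFs, an increase of 0.79 ± 0.048 or 1.73-fold (SE; adjusted p = 4.1e-05). Gsta4, which clears the lipid peroxidation product hydroxynonenal, rose by 0.46 (adjusted p = 0.000589). The remaining transferases did not pass the test, with differences of 0.044 for Gstp1, -0.0096 for Gsto1 and -0.11 for Mgst3.

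The mu class transferases lie side by side on chromosome 3, and all 3 that belong to the set rose, where 17.1% of all genes did. Gstm2 was at 11.03, 11.05 and 11.13 in Atxn3-KO MEFs, against 10.02, 9.98 and 10.05 in Atxn3-WT MEFs, an increase of 1.05 ± 0.048 on the log2 scale or 2.07-fold (SE; limma adjusted p = 1.06e-05). Gstm1 was at 11.00, 11.03 and 11.03 in Atxn3-KO MEFs, against 10.32, 10.11 and 10.16 in Atxn3-WT MEFs, and rose by 0.83 ± 0.062 (SE; adjusted p = 0.00011), with its 4 probe sets between 0.53 and 0.85. Gstm5 was at 12.39, 12.42 and 12.38 in Atxn3-KO MEFs, against 11.58, 11.66 and 11.68 in Atxn3-WT MEFs, and rose by 0.76 ± 0.046 (SE; adjusted p = 4.22e-05). In none of these genes did the genotypes overlap. Of the 4 other measured genes of the cluster, which are not among the 44, Gstm4 rose by 1.41, Gstm7 by 0.65 and Gstm3 by 0.36. Gstm6 differed by 0.22 without passing (limma adjusted p = 0.264). The other Gstm7 probe set differed by 0.18 and the other Gstm3 probe set by 0.2, and neither passed. Of the 8 measured neighbours, 4 on each side, 4933431E20Rik rose by 0.50 and Csf1 by 0.29. These 2 of 8 compare with 17.1% of all genes that rose, and the other 6 neighbours did not pass. The mu class genes are close in sequence, and the Gstm1 and Gstm3 probe sets used are of types that may read related transcripts, so their signals may not be independent.

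**Figure D4:**
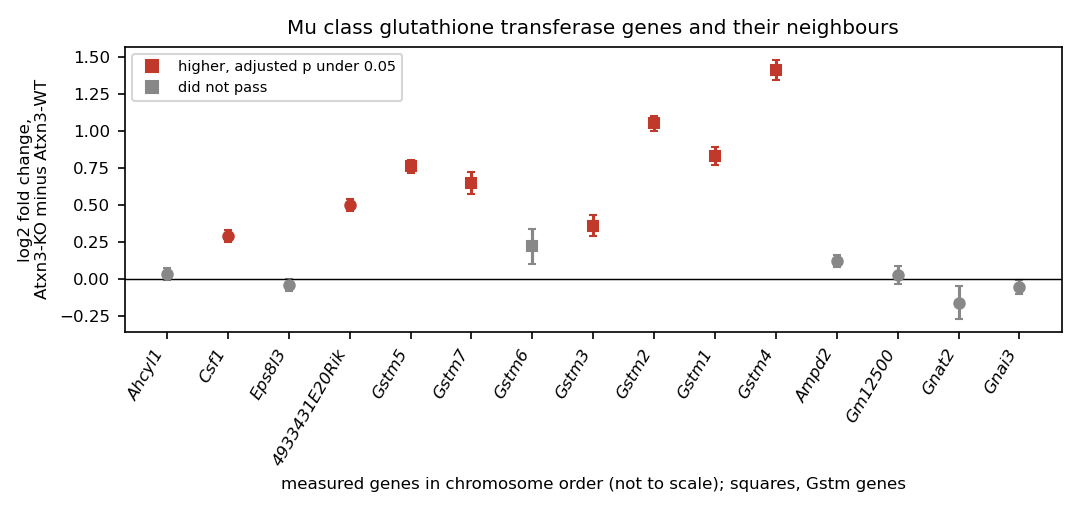
Log2 fold change, Atxn3-KO minus Atxn3-WT, of the 7 measured Gstm genes (squares) and their 8 measured neighbours (circles) on chromosome 3, in chromosome order and not to scale; bars are standard errors. Red genes passed an adjusted p of 0.05 and grey genes did not; the Gstm genes run from 0.22 for Gstm6 to 1.41 for Gstm4, and the 4 genes on the right lie between -0.16 and 0.12.

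**Figure D5:**
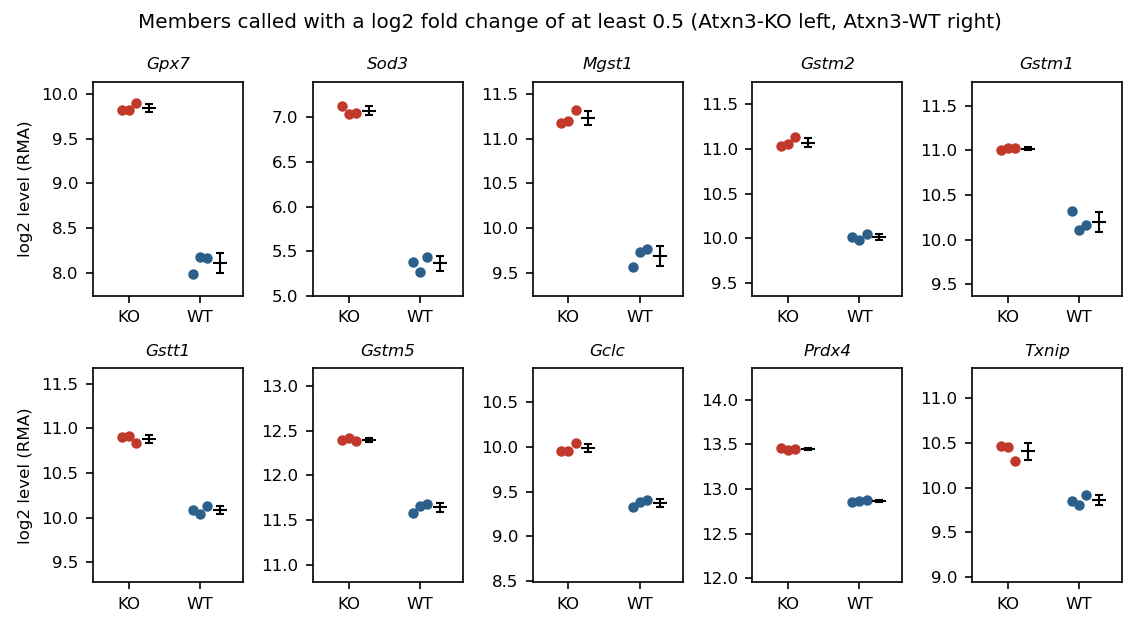
Log2 level on each array of the 10 antioxidant genes that rose by at least 0.5 on the log2 scale, Atxn3-KO in red on the left and Atxn3-WT in blue on the right of each panel; the crossbar is the mean and the whiskers are the SD of 3 arrays, and all panels span the same number of log2 units. In every panel the 3 Atxn3-KO arrays lie above the 3 Atxn3-WT arrays, from a difference of 1.74 in Gpx7 to 0.55 in Txnip.

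The promoters of these genes were searched for the core of the antioxidant response element, TGACNNNGC, in which N is any base, on both strands of the 250 bases before each start site in RefSeq (GRCm38.p6). Of the 44 measured genes 39 had a promoter there, and the core was found in 7 of them, beside 11.5% of all 27025 genes with a promoter. It was found in 3 of the 22 genes that rose (Nfe2l2, Gstm5 and Mgst1), in 1 of the 2 that fell (Mt2) and in 3 of the 15 that did not pass (Sod1, Txnrd1 and Gclm). Those of 4 genes are printed in 5′ to 3′ direction with the match to the core in capitals. They show such a match before a pair of transferases that rose, a glutathione synthesis gene that did not pass and a metallothionein that fell.
Gstm5: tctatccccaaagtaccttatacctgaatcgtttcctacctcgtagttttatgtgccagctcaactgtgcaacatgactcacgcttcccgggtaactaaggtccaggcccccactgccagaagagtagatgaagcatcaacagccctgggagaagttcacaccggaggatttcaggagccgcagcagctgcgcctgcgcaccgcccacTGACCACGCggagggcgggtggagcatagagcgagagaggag
Mgst1: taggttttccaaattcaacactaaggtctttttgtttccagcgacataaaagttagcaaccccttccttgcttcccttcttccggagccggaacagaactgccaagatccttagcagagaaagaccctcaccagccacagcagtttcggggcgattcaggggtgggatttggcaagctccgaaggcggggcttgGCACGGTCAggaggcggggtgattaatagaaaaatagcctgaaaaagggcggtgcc
Gclm: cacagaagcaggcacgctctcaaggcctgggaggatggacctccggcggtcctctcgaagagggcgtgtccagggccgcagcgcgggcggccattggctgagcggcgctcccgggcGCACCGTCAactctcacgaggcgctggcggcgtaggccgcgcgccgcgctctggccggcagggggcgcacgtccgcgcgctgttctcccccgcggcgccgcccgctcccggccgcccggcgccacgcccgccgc
Mt2: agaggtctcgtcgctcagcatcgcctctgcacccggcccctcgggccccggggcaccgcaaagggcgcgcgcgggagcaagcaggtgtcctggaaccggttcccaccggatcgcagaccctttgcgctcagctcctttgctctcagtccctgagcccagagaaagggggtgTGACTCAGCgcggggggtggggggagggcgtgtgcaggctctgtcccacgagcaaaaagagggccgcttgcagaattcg
The Gstm5 stretch is chr3:107895604-107895853, with the core starting 42 bases before the start site; the Mgst1 stretch is chr6:138140277-138140526, before 1 of its 2 start sites, with the core on the opposite strand. The Gclm stretch is chr3:122245307-122245556, again with the core on the opposite strand, and the Mt2 stretch is chr8:94172368-94172617. All 4 genes are on the plus strand. The FOXO motif GTAAACA, searched in the same windows, was found in 2 of the 39 genes, Txnip and Slc7a11, beside 3.54% of all genes with a promoter, and both motifs overlapped in 0. These letters were not in the 250 bases before Sod2. A match is a description of the sequence only, and bases more than 250 before a start site were not searched.

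Nqo1 and Hmox1, genes often used to read NRF2 activity, did not pass the test, and both estimates were below 0. Nqo1, the quinone reductase, was at 8.47, 8.50 and 8.55 in Atxn3-KO MEFs, against 8.62, 8.53 and 8.65 in Atxn3-WT MEFs. The genotypes overlapped, and the difference of -0.094 did not pass the limma test (95% interval -0.21 to 0.025; adjusted p = 0.232). Hmox1, the inducible heme oxygenase, was at 9.38, 9.43 and 9.40 in Atxn3-KO MEFs, against 9.58, 9.48 and 9.62 in Atxn3-WT MEFs, a difference of -0.16 (95% interval -0.28 to -0.04) that missed the threshold with an adjusted p of 0.0582 and passed it, as lower, under 5 alternatives, among them leaving out Atxn3-WT replicate 2, at -0.20. The constitutive heme oxygenase Hmox2 and the biliverdin reductase Blvrb, which acts on a heme breakdown product, rose by 0.32 and 0.26 (adjusted p = 0.00223 and 0.0153), although the Blvrb call ended without Atxn3-KO replicate 2 (adjusted p = 0.0554). Fth1, the ferritin heavy chain that stores iron, was at 14.07 ± 0.018 in Atxn3-KO MEFs and 13.94 ± 0.043 in Atxn3-WT MEFs (SD, n = 3 each), and did not pass (limma adjusted p = 0.0738).

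The metallothioneins, small cysteine-rich proteins that bind zinc and copper, did not move together. Mt2 was at 10.86, 10.76 and 10.86 in Atxn3-KO MEFs, against 11.24, 11.05 and 11.38 in Atxn3-WT MEFs. It fell by 0.40 on the log2 scale (SE 0.084), the lowest difference of the 44 genes, with a limma adjusted p of 0.0122. Mt1, its neighbour in the genome, averaged 11.79 ± 0.082 in Atxn3-KO MEFs and 11.64 ± 0.14 in Atxn3-WT MEFs (SD, n = 3 each), with overlapping genotypes and an adjusted p of 0.217. The Atxn3-WT arrays were the more scattered in both genes. Of the genes that supply NADPH through the pentose phosphate pathway, Pgd rose by 0.36 (adjusted p = 0.00247) and Taldo1 differed by -0.016 (adjusted p = 0.857).

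The 95% intervals of the 17 genes that did not pass the test lay within -0.28 and 0.33 on the log2 scale except that of Gpx3, which reached 0.61. Agreement between probe sets was checked where a gene had more than 1. Of the 17 genes that rose and had another probe set, 14 had another that rose too and 0 had one that fell; of the 9 that did not pass, Sod1 alone had another probe set that passed, in the downward direction. The array reads RNA, so the amount and activity of these enzymes were not measured.

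Beyond the set, 73 of 77 further genes of the same pathways were measured, and 25 rose (34.2%, against 17.1% of all genes), 12 fell (16.4%, against 14.7% of all genes) and 36 did not pass, with a median difference of 0.077 on the log2 scale. Mgst2, a membrane-bound transferase related to Mgst1, was at 8.86, 8.90 and 8.92 in Atxn3-KO MEFs, against 6.81, 6.60 and 6.63 in Atxn3-WT MEFs. It rose by 2.22 ± 0.064 (SE), more than any of the 44 genes, with a limma adjusted p of 1.52e-06. Gstm4 followed, then Txnrd3, a thioredoxin and glutathione reductase, at 0.77 and Oplah, the oxoprolinase that returns glutamate from the glutathione cycle, at 0.76. On the other side, the carbonyl reductase Cbr3, another known NRF2 target, averaged 8.68 ± 0.069 in Atxn3-KO MEFs and 9.77 ± 0.021 in Atxn3-WT MEFs (SD, n = 3 each) and fell by 1.09 (limma adjusted p = 1.06e-05). The iron exporter Slc40a1 fell by 0.75, the glutathione-degrading enzyme Chac1 by 0.51 and the methionine sulfoxide reductase Msra by 0.36.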

How the data were processed

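RNA from 3 Atxn3-KO and 3 Atxn3-WT MEF samples was hybridized to 6 Affymetrix mouse genome arrays with genotypes taken from GEO's labels. The values deposited by the authors are log2 levels, which their methods describe as normalized by RMA, a procedure that corrects background, quantile-normalizes arrays and summarizes each probe set's probes; RMA and limma also stand, unversioned, in the submitters' processing notes. Quantile normalization gives every array the same distribution, which would hide a change shared by most genes. Scanner intensities and detection calls were not used here, and 3 arrays per genotype limit the precision.

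The difference Atxn3-KO minus Atxn3-WT was fitted to them with limma 3.58.1 under R 4.3.3 (lmFit, eBayes, equal array weights), with Benjamini-Hochberg adjustment over 45037 probe sets after 64 controls were left out and with no filter on low values. This fit was tested on simulated data. Platform annotation named 1 gene for 34945 probe sets; 932 naming several genes and 9160 naming none were left out of gene counts.

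Named in full are Sod2, Nfe2l2, Keap1 and genes past the test with a difference of at least 0.5; other listed genes are named by role, and of further lists up to 4 highest and 4 lowest. Values of Slc7a11, Mt2, Nqo1, Hmox1, the Gstm neighbours and the marker genes are given outside that rule, chosen after their values were seen. The genes and lists were chosen with earlier results of these data known. Same-numbered arrays' deviations from their genotype means correlated at 0.0212, -0.0227 and -0.0361, so they showed no strong shared deviation over all probe sets. Whether same-numbered samples were cultured or processed together cannot be told from these correlations, and the main fit did not pair them. Alternatives were array weights, a replicate block, renormalization, a filter on dim probe sets, other variance models, other choices of probe set, the methods' thresholds and leaving out each array.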

Additional observations from a re-analysis of the deposited data

How the results depend on the processing

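Of the 27 antioxidant genes that passed the test, 20 kept their call and direction under all 15 alternatives that test each gene (18 higher and 2 lower), and 5 of the 17 others passed under at least 1. The count that rose was 19 to 22 with 1 array left out and the count that fell 2 to 3; the median difference was 0.18 to 0.21, and all probe sets called numbered 8834 to 10011. At the methods' thresholds 590 probe sets passed, with 4 antioxidant genes higher and 0 lower, 2 further pathway genes higher and 1 lower, and 2 of the FOXO factors, FOXO targets and oxidant sources higher and 1 lower. The mean of all probe sets of a gene gave 4 antioxidant genes lower, and the probe set with the highest variance gave a median difference of 0.24. For Sod2, leaving out 1 array gave 0.17 to 0.21. With the replicate number as a block, Sod2 stayed at 0.19 with a limma adjusted p of 0.0582. The antioxidant genes that rose then numbered 20, and 9801 probe sets passed. No source used here says what same-numbered arrays share beyond the number.

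Direction turned only in genes that had not passed the test. With the mean of a gene's probe sets Sod1 was at -0.13, where it passed as lower (adjusted p = 0.0441), and Gclm at -0.006. With the probe set of highest variance Sod1 was at -0.37, Cat at 0.051, Gclm at -0.11, Gsto1 at 0.0015, Mgst3 at 0.10, Foxo1 at 0.22 and Foxo4 at 0.041. Hmox1 passed as lower with quantile normalization again (adjusted p = 0.0473), with probe sets under the median level left out (0.0177), with eBayes trend (0.0116) and with the mean of each gene's probe sets (0.031). Sod1 (0.0254), Gclm (0.0238) and Fth1 (0.000749) passed as higher with eBayes trend, and Fth1 also with probe sets under the median level left out (0.0191) and with the mean of each gene's probe sets (0.0294). With each array centred on its median Gpx1 was at 0.0092 and Gsto1 at 0.0029. With 1 array left out Gpx1 ranged from -0.02 to 0.015, Prdx3 from -0.078 to 0.0019, Gsto1 from -0.027 to 0.014 and Taldo1 from -0.053 to 0.017; Gpx1 turned at 0.0064 without Atxn3-WT replicate 3 and Gsto1 at 0.00055. Choosing another probe set changes which transcripts are read; the cause of the other changes was not tested. Detection above background was not assessed, which limits what can be read of genes of low level such as Gpx3, Slc7a11 and, in Atxn3-WT MEFs, Sod3.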

Other observations

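Genes whose products make reactive oxygen species were measured beside those that remove them. Of 21 listed, 15 were measured, 5 rose (33.3%, against 17.1% of all genes) and 3 fell (20.0%, against 14.7% of all genes), with a median difference of 0.042 on the log2 scale. Xdh, the xanthine oxidoreductase that forms superoxide and hydrogen peroxide, averaged 8.74 ± 0.028 in Atxn3-KO MEFs and 7.40 ± 0.074 in Atxn3-WT MEFs (SD, n = 3 each), an increase of 1.34 with a limma adjusted p of 4.94e-06. Nox4, an NADPH oxidase that forms hydrogen peroxide, rose by 0.44, the aldehyde oxidase Aox1 by 0.36 and the monoamine oxidase Maoa by 0.17. The Aox1 call ended without any 1 of 4 of the arrays (adjusted p up to 0.0622) and the Maoa call without any 1 of 5 (up to 0.0846); the mean of Maoa's probe sets differed by 0.046 (adjusted p = 0.439). Maob, the other monoamine oxidase, fell by 1.12 (limma adjusted p = 0.000105), to 4.39 ± 0.16 in Atxn3-KO MEFs, against 5.51 ± 0.064 in Atxn3-WT MEFs, both under the median level of all probe sets. Ero1a, the oxidase of the endoplasmic reticulum that forms hydrogen peroxide while making disulfide bonds, fell by 0.92 (adjusted p = 0.000467), to 10.22 ± 0.12 in Atxn3-KO MEFs, against 11.14 ± 0.16 in Atxn3-WT MEFs. Cyba, a subunit of NADPH oxidases, fell by 0.29. Ero1b, the relative of Ero1a, differed by -0.088 and did not pass the test (limma adjusted p = 0.27). Gpx7, Gpx8 and Prdx4, grouped after their values were seen, remove peroxide in the endoplasmic reticulum and rose. Any link between these differences was not tested.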
